A study of Mus musculus with 18 samples.

Results

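The Ms4a family was followed through 3 mouse adipose depots by 9 of its genes, Ms4a1, Ms4a2, Ms4a4b, Ms4a4c, Ms4a4d, Ms4a6b, Ms4a6c, Ms4a6d and Ms4a7. They were taken by symbol from the 18 Ms4a symbols among the 52093 symbols of the expression tables, and the other 9 Ms4a symbols are described at the end. Rows were chosen by measured level, in that the row of a symbol with the largest RPKM, averaged over all 18 libraries, would stand for it. Each Ms4a symbol had 1 row, so this step removed nothing. By their known cell type, Ms4a7, Ms4a6c and Ms4a6d were set as macrophage members against Ms4a1 of B cells, Ms4a4b of T cells and Ms4a2 of mast cells, and Ms4a4c, Ms4a4d and Ms4a6b were assigned to no single cell type. The libraries came from male wild type C57BL/6 mice (substrain C57BL/6J in the labels' protocol and C57BL/6NTac in the study's supplement) aged 16 weeks after 12 weeks of high-fat feeding (HFD). There were 6 libraries of inguinal white adipocytes (iWAT), 6 of epididymal white adipocytes (eWAT) and 6 of brown adipose tissue (BAT). The iWAT and eWAT samples were the floating layer left after collagenase digestion, not sorted cells, and BAT was whole frozen tissue even though its cell type label reads BAT adipocytes. A treatment label of regular chow stood on all 18 samples, against their titles and the study design, which give HFD. They are described as HFD samples here. The labels do not say whether a title number names a mouse, so the p-values below measure the spread between these libraries.

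Ms4a proteins (membrane-spanning 4-domains, subfamily A) cross the membrane 4 times and sit beside immune receptors at the cell surface. Ms4a1 encodes CD20, the B cell surface protein bound by depleting antibodies in the clinic. Ms4a2 encodes the beta chain of the high-affinity IgE receptor, which amplifies signals in mast cells and basophils. Ms4a4b is expressed on T cells, while Ms4a7, Ms4a6c and Ms4a6d are macrophage genes. In obesity, macrophages gather in white adipose tissue and above all in the epididymal depot, where they surround dying adipocytes.

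The 18 Ms4a rows lie side by side on chromosome 19 over 679 kb (mm9 chr19:11036783-11715341), and several members are close copies of each other, which bears on how reads are divided between them. The first 60 coding bases of the 2 groups of close copies are printed here, read from the mm9 genome, with capitals at the positions where the 3 genes of a group differ.
Ms4a4b: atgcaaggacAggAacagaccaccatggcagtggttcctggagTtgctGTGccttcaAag
Ms4a4c: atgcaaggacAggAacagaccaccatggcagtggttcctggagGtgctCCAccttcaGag
Ms4a4d: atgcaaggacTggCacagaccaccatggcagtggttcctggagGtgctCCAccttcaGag
Ms4a6b: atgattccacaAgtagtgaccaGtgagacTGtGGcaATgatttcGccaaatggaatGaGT
Ms4a6c: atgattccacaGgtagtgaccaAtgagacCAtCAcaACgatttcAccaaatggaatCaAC
Ms4a6d: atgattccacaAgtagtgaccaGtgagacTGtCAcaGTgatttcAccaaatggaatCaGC
These stretches lie at chr19:11524409-11524468 (Ms4a4b, plus strand), chr19:11489307-11489366 (Ms4a4c, plus), chr19:11622994-11623053 (Ms4a4d, plus), chr19:11594829-11594888 (Ms4a6b, plus), chr19:11545595-11545654 (Ms4a6c, plus) and chr19:11677723-11677782 (Ms4a6d, minus), each within the first coding exon of its longest annotated coding sequence. The Ms4a4 group differed at 7 of the 60 positions and the Ms4a6 group at 12. Over their whole longest coding sequences, Ms4a4b and Ms4a4c were 91.8% identical with a run of 127 bases without a difference, and Ms4a6b was 80.7% identical to Ms4a6d and 76.0% to Ms4a6c. Ms4a7, Ms4a1 and Ms4a2 shared no stretch of 50 coding bases with any other member. How reads that match several places were counted is not given in the sources used here. The division of reads between Ms4a4b and Ms4a4c, and between the Ms4a6 genes, is therefore uncertain. The row of Ms4a6c overlaps LOC100504727 on the opposite strand, with 28 to 1019 reads in a library. Without a stated strand setting the reads of the 2 rows cannot be told apart.

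Total reads on the rows ran from 26768529 to 30166441 in iWAT, 24655056 to 37438994 in eWAT and 27402247 to 42518483 in BAT. Adipoq, the adipocyte hormone adiponectin, was at 840 to 1297 RPKM in iWAT, 149.9 to 579 in eWAT and 189 to 268 in BAT. Ucp1, the uncoupling protein of brown adipocytes, was at 1465 to 2136 RPKM in BAT and at most 2.98 in the white depots. Between library sets, tissue goes with preparation for BAT (whole tissue against floating cells) and with sequencing lane, since no BAT library shares a lane with a white one; these cannot be told apart. The iWAT and eWAT libraries shared lanes 1 and 2. RPKM divides by a library total which, worked back from the RPKM values, was not the number of reads on the rows. It was below that number in BAT (32993176 against 37023490 in replicate 1). In the white depots it was above (41145280 against 37438994 in eWAT replicate 1). The fold changes below use TMM scaling instead. Without it, the median log2 fold change over all genes was 0.87 for iWAT over BAT and 0.89 for eWAT over BAT. The calls then split into 13703 higher in iWAT and 3054 in BAT (7528 and 7336 with TMM) and into 12965 higher in eWAT and 4061 in BAT (8243 and 8318 with TMM). The log2 fold changes of the macrophage members over BAT given below were then higher too, at 2.76 to 3.62 in iWAT and 4.95 to 6.23 in eWAT.

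The macrophage members were high in eWAT, intermediate in iWAT and low in BAT, with no overlap between any pair of tissues. Ms4a7 was at 14.9, 16.7 and 21.8 RPKM (lowest, median and highest library) in eWAT, at 1.68, 2.65 and 3.67 in iWAT and at 0.225, 0.302 and 0.361 in BAT. Ms4a6d, the most abundant member of the white depots, was at 28.2, 34.8 and 51.9 RPKM in eWAT, 4.81, 6.16 and 8.29 in iWAT and 0.423, 0.549 and 0.967 in BAT. For Ms4a6c the values were 12.6, 15.1 and 17.7 RPKM in eWAT, 2.01, 3.35 and 4.61 in iWAT and 0.354, 0.564 and 0.974 in BAT. In each of the 3 genes, the lowest eWAT library stood above the highest iWAT library and the lowest iWAT library above the highest BAT library. The share of all genes that also separated the tissues in this way was not counted. The lack of overlap is therefore not called particular to these genes. Within iWAT, replicate 2 was the lowest and replicate 5 the highest for all 3.

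**Figure D1:**
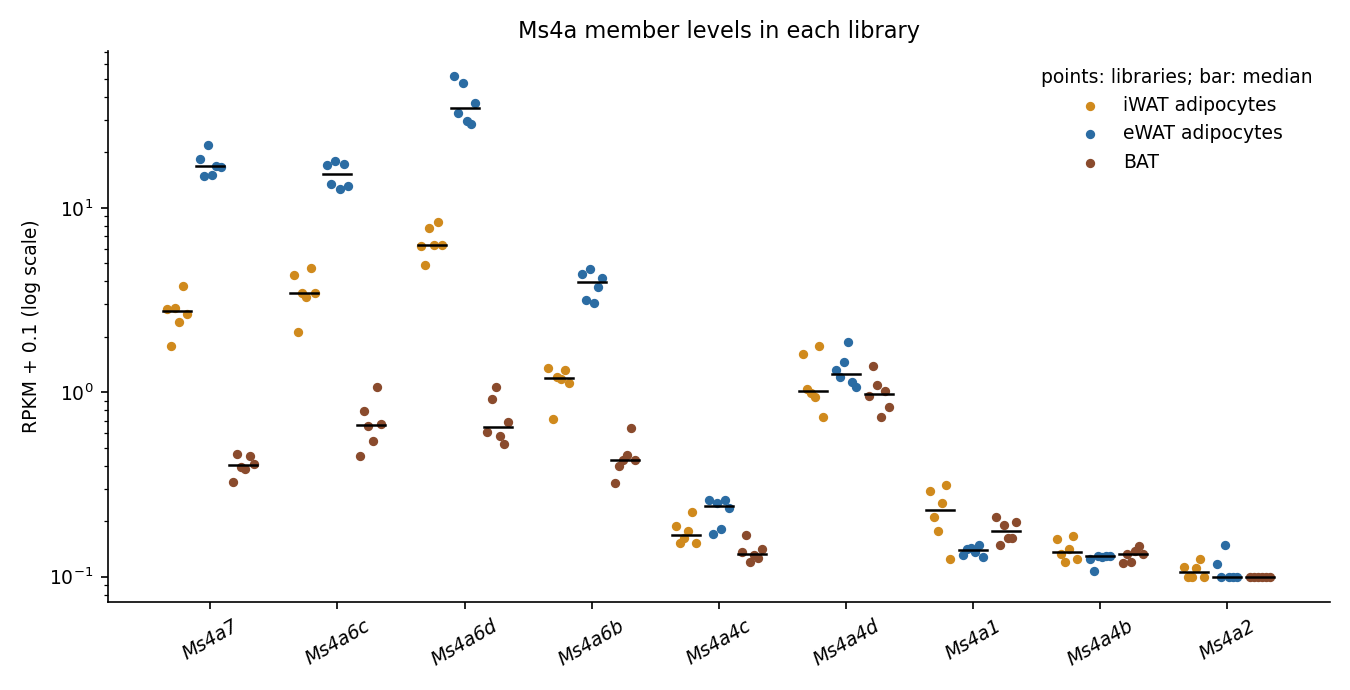
RPKM + 0.1 on a log axis for the 9 members in each of the 18 libraries, coloured by tissue, with a bar at the median of each tissue. Ms4a7, Ms4a6c, Ms4a6d and Ms4a6b form 3 separate levels (eWAT above iWAT above BAT), Ms4a4d lies between 0.63 and 1.76 RPKM in every tissue, and Ms4a1, Ms4a4b, Ms4a4c and Ms4a2 lie near the lower end in all tissues.

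To ask how the family differs between the depots, each pair of tissues was compared with edgeR's quasi-likelihood test over all genes with a mean of at least 10 reads, at an adjusted p (Benjamini-Hochberg) of 0.05. In eWAT against iWAT, 7 of the 9 members passed the read filter and 6 were called, 5 higher in eWAT and 1 higher in iWAT; over all 19623 genes tested, 68.6% were called, 34.5% higher in eWAT and 34.1% higher in iWAT. In iWAT against BAT, 6 members passed and 4 were called, each higher in iWAT, beside 75.3% of 19745 genes (38.1% higher in iWAT and 37.2% higher in BAT). In eWAT against BAT, 7 passed and 6 were called, 5 higher in eWAT and 1 higher in BAT, beside 82.5% of 20076 genes (41.1% higher in eWAT and 41.4% higher in BAT). Most genes differed between any pair of these tissues, so that a member was called says little and its size says more. Over the 7, 6 and 7 members that passed, the median log2 fold change was 1.84 in eWAT over iWAT, 1.45 in iWAT over BAT and 2.85 in eWAT over BAT. Ms4a4b and Ms4a2 passed in no comparison and do not enter these medians. Over all genes the medians were -0.0014, 0.014 and -0.017 under TMM scaling, which moves those against BAT close to 0. Ms4a1 and Ms4a4c averaged fewer than 10 reads in the lower tissue of each comparison in which they were called. They passed the filter through the tissue where they were higher. These counts and medians are therefore no support for a family-wide change.

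Ms4a7 was 6.56-fold higher in eWAT than in iWAT (log2 2.71 ± 0.15, SE; adjusted p = 1.2e-07), 5.62-fold higher in iWAT than in BAT (log2 2.49 ± 0.16; adjusted p = 1.3e-09) and 37.7-fold higher in eWAT than in BAT (log2 5.23 ± 0.13; adjusted p = 1.0e-13) by edgeR. Ms4a6d gave similar steps, 5.76-fold from iWAT to eWAT (log2 2.53 ± 0.17) and 6.82-fold from BAT to iWAT (log2 2.77 ± 0.19). The step of Ms4a6c was 4.37-fold from iWAT to eWAT (log2 2.13 ± 0.16) and 3.74-fold from BAT to iWAT (log2 1.90 ± 0.21), and its log2 difference of 4.06 ± 0.18 between eWAT and BAT was below the 5.33 ± 0.23 of Ms4a6d. The differences between these fold changes were not tested. Within lane 1 the eWAT over iWAT log2 fold changes were 2.62 for Ms4a7, 2.30 for Ms4a6d and 2.00 for Ms4a6c, and within lane 2 they were 2.74, 2.77 and 2.15, all called. The 8 macrophage markers, among them Cd68 (a lysosomal glycoprotein of macrophages) and Emr1 (the F4/80 antigen), all passed the test and were higher in eWAT than iWAT (median log2 1.98), in iWAT than BAT (2.70) and in eWAT than BAT (4.70). Their summed level was 1226 to 1918 RPKM in eWAT, 239 to 432 in iWAT and 17.96 to 34.9 in BAT, none of them at 0, and their part in the Ms4a differences was not tested. In such bulk RNA, fewer cells of a type and less RNA per cell cannot be told apart.

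**Figure D2:**
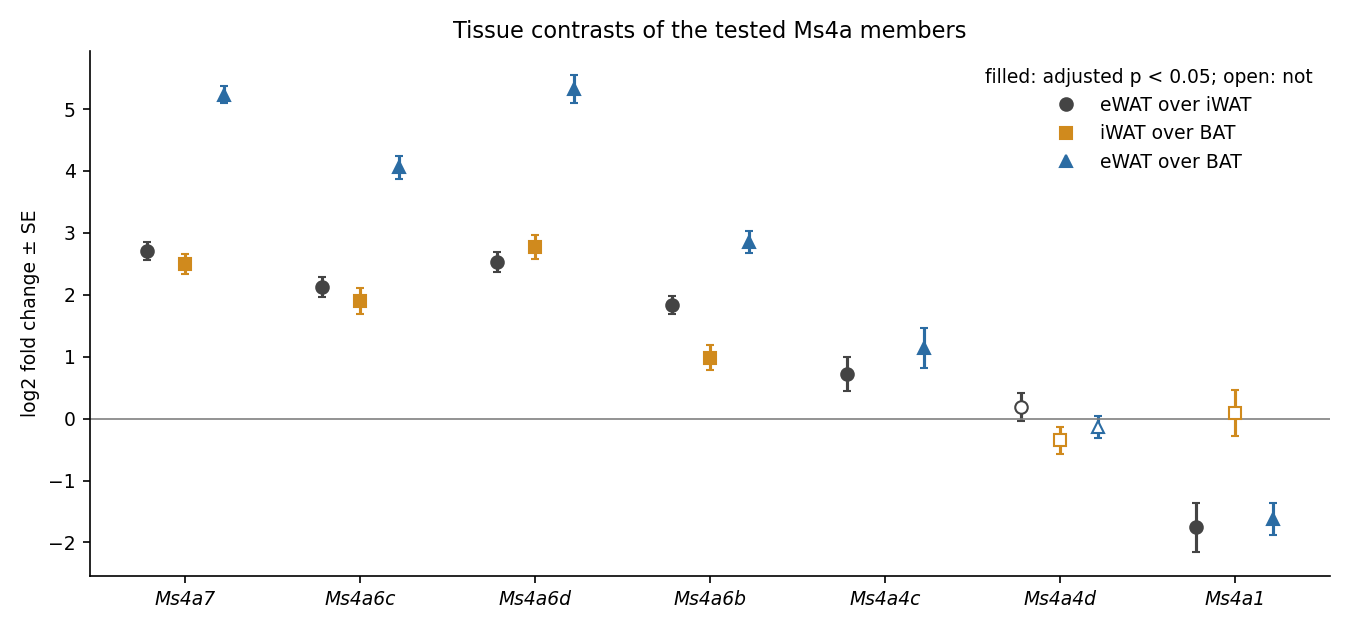
Log2 fold change ± SE of the 7 members that passed the read filter, for eWAT over iWAT, iWAT over BAT and eWAT over BAT; filled symbols passed an adjusted p of 0.05. Ms4a7 and Ms4a6d reach 5.23 and 5.33 in eWAT over BAT, Ms4a4d is open in all 3 comparisons, and Ms4a1 alone lies clearly below 0, at -1.75 and -1.62.

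The macrophage members did not keep a fixed ratio to the marker genes. Ms4a7 per Cd68 (a ratio of RPKM values) was 0.0149 to 0.0239 in iWAT, 0.0269 to 0.0325 in eWAT and 0.0772 to 0.139 in BAT, so BAT was the highest and no pair of tissues overlapped. Per Csf1r, the receptor for the growth factor that keeps macrophages alive, Ms4a7 was 0.0997 to 0.147 in iWAT, 0.193 to 0.221 in eWAT and 0.112 to 0.207 in BAT. Against C1qa, a complement subunit made by tissue macrophages, the order was turned, with 0.0229 to 0.0450 in BAT below 0.0477 to 0.0576 in iWAT and 0.0553 to 0.0807 in eWAT. The place of BAT thus depended on the marker, while eWAT lay above iWAT in the mean of Ms4a7 against each of the 3. Ms4a6c shared this only in part. Its mean was 0.0268 in eWAT and 0.0252 in iWAT per Cd68, and 0.185 and 0.165 per Csf1r. The order was turned per C1qa, with 0.0612 in eWAT and 0.0701 in iWAT, and per Emr1, with 0.144 and 0.153. The depots overlapped in each of these ratios of Ms4a6c. These ratios are given as a description, without a test.

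Ms4a6b, a paralog of these genes that T cells also express, had the same order of tissues, at a level below the macrophage members in the white depots and close to Ms4a7 in BAT. It was at 2.97, 3.84 and 4.58 RPKM (lowest, median and highest) in eWAT, 0.612, 1.09 and 1.25 in iWAT and 0.223, 0.328 and 0.541 in BAT, again without overlap between tissues. It was 3.57-fold higher in eWAT than iWAT (log2 1.84 ± 0.15; edgeR adjusted p = 5.4e-07) and 1.98-fold higher in iWAT than BAT (log2 0.99 ± 0.20; edgeR adjusted p = 0.00033). Without TMM the latter was 1.85, and with limma on log2(RPKM + 1) it was 0.60, still called. After the tissue means were taken off, Ms4a6b, Ms4a6c and Ms4a7 varied together over the 18 libraries, with r = 0.85 for Ms4a6b and Ms4a6c, 0.80 for Ms4a6b and Ms4a7 and 0.86 for Ms4a6c and Ms4a7. Ms4a6d had r = 0.59 to Ms4a7, 0.30 to Ms4a6b and 0.33 to Ms4a6c, and Ms4a4c had r = 0.65 to Ms4a7. These are descriptions over libraries that share depth, and the Ms4a6 genes share stretches of sequence. The 250 bases before the RefSeq start of Ms4a6b (chr19:11592799-11593048, plus strand) and Ms4a6c (chr19:11543608-11543857, plus strand) are shown because these neighbours moved together. They are RefSeq promoter sequences on GRCm38.p6 placed on mm9 by exact match, and capitals mark runs of at least 15 bases present in both. The Ms4a6b window is printed over its first 144 bases (chr19:11592799-11592942), since GENCODE annotates a UTR on the other 106, so its second run in capitals is cut short.
Ms4a6b promoter: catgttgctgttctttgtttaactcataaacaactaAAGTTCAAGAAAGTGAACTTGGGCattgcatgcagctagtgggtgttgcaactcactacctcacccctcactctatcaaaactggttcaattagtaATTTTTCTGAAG
Ms4a6c promoter: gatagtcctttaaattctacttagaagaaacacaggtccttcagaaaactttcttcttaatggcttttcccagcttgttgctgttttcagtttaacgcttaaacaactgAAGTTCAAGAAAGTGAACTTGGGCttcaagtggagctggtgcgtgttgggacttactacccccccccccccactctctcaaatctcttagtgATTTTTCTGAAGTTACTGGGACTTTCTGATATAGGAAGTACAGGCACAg
The shared runs of 24 and 48 bases, counted over the whole windows, stood in the same order in both, and the longer one ended 2 bases before the start of Ms4a6c and 71 bases before that of Ms4a6b. The RefSeq start of Ms4a6c is the start of its row in the files, while that of Ms4a6b lies 2047 bases inside its row.

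Promoter windows were found for 7 of the 9 members, and none for Ms4a1 and Ms4a6d. They were searched on both strands for GAGGAA, the core of the PU.1 site (PU.1 is the myeloid and B cell factor Spi1), and for TGANTCA, the AP-1 site, which do not overlap each other in these windows. GAGGAA stood, among the members, in the windows of Ms4a4b and Ms4a4c only. It stood in 23.3% of all 32851 promoter windows of the table. TGANTCA stood in 1 of the 2 windows of Ms4a7 and in no other member's, and in 6.75% of all windows. The windows with a match are printed with the matched letters in capitals.
Ms4a4b promoter: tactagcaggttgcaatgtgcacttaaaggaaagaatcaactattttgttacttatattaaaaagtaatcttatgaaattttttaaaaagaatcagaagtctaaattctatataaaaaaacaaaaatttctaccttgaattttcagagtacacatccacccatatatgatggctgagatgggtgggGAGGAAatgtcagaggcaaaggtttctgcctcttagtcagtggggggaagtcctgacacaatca
Ms4a4c promoter: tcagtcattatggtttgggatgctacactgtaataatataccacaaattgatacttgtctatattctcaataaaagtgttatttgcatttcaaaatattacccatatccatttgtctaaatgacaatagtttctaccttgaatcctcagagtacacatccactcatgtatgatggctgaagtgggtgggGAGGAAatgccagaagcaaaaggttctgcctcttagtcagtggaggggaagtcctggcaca
Ms4a7 inner promoter: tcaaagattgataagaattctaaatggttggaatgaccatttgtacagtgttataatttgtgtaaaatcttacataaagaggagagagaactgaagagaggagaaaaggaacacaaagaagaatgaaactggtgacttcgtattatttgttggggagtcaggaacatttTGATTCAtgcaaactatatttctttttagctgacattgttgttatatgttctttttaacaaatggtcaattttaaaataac
They lie at chr19:11517798-11518047 (Ms4a4b, plus strand), chr19:11481901-11482150 (Ms4a4c, plus) and chr19:11409186-11409435 (Ms4a7, minus) on mm9. The match ended 59 bases before the start of Ms4a4b and 56 before that of Ms4a4c, and in the Ms4a7 window it ended 75 bases before a start 1451 bases inside the row. A match of letters is a description and says nothing of binding.

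Ms4a4d and Ms4a4c, neighbours of Ms4a4b in sequence, did not follow the macrophage pattern to the same extent. Ms4a4d was at 0.963, 1.163 and 1.76 RPKM in eWAT, 0.634, 0.915 and 1.68 in iWAT and 0.632, 0.885 and 1.28 in BAT. The 3 tissues overlapped, and the log2 fold changes of 0.19 ± 0.22 (eWAT over iWAT, 95% interval -0.25 to 0.63), -0.35 ± 0.22 (iWAT over BAT, -0.78 to 0.075) and -0.13 ± 0.18 (eWAT over BAT, -0.48 to 0.22) did not pass (edgeR adjusted p = 0.46, 0.15 and 0.50). Its sign against BAT depended on the scaling: without TMM it was 0.50 for iWAT over BAT and 0.76 for eWAT over BAT (adjusted p = 0.0021), values below the shift of all genes. Without iWAT replicate 5, the library with the highest Ms4a4d level in iWAT, iWAT over BAT was -0.50 and passed (adjusted p = 0.039). Ms4a4c had 9 to 28 reads in eWAT, 6 to 16 in iWAT and 2 to 11 in BAT, or 0.0700 to 0.161, 0.0521 to 0.126 and 0.0194 to 0.0676 RPKM. It was called higher in eWAT than iWAT (log2 0.72 ± 0.27; edgeR adjusted p = 0.031), where the libraries overlapped, and higher in eWAT than BAT (log2 1.14 ± 0.32; edgeR adjusted p = 0.0040), where they did not. With the shared title numbers as a replicate block, the call against BAT was lost (log2 1.05; adjusted p = 0.070). Of 12 alternatives 5 lost the eWAT over iWAT call: within lane 1 (log2 0.60; adjusted p = 0.33), within lane 2 (log2 0.91; adjusted p = 0.081), with genes of few reads kept (log2 0.70; adjusted p = 0.069) and with limma on log2 RPKM at a pseudocount of 0.1 (0.35; adjusted p = 0.078) or 1 (0.065; adjusted p = 0.091).

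Ms4a1 (CD20) was the member called lower in eWAT than in iWAT. It was at 0.0282, 0.0388 and 0.0478 RPKM in eWAT (6 to 9 reads), 0.0253, 0.131 and 0.214 in iWAT (5 to 41 reads) and 0.0490, 0.0763 and 0.1098 in BAT (9 to 23 reads). iWAT replicates 5 and 1 were the highest of all libraries, and iWAT replicate 16, with 5 reads, was below every eWAT library, so iWAT and eWAT overlapped while eWAT and BAT did not. Replicates 5 and 1 also had the highest summed levels in iWAT of the 5 endothelial markers (287 and 244 RPKM, against 101 to 182 in the others), of the 5 progenitor markers (46.5 and 33.1, against 16.2 to 31.6) and of the 5 B cell markers (3.11 and 2.49, against 1.30 to 2.18). Ms4a1 was 3.37-fold higher in iWAT than eWAT (log2 eWAT over iWAT -1.75 ± 0.40; edgeR adjusted p = 0.0015) and 3.08-fold higher in BAT than eWAT (log2 eWAT over BAT -1.62 ± 0.26; edgeR adjusted p = 3.3e-05). Without TMM the difference from BAT was -0.73 (adjusted p = 0.021). The 5 endothelial markers were all called lower in eWAT than iWAT (median log2 -1.63) and than BAT (-1.46), with a median of 0.043 in iWAT over BAT, and their summed level was 34.3 to 73.0 RPKM in eWAT and 70.7 to 102 in BAT. The 5 progenitor markers did not have this order. Their median log2 was 0.23 in eWAT over iWAT, where 4 were not called and 1 was lower in eWAT. Under TMM scaling it was -0.39 in eWAT over BAT, with 1 called higher in eWAT and 2 in BAT. It was -0.89 in iWAT over BAT, with 1 called higher in iWAT and 3 in BAT. Their summed RPKM ran the other way in the mean. It was 23.6 to 43.3 in eWAT and 16.2 to 46.5 in iWAT, against 13.7 to 20.7 in BAT. The part of the endothelial, progenitor and B cell markers in the Ms4a1 differences was not tested. Between iWAT and BAT the log2 fold change was 0.10 ± 0.37 (95% interval -0.63 to 0.83; edgeR adjusted p = 0.82), which turned to -0.092 without iWAT replicate 5 and was called at 0.96 without TMM (adjusted p = 0.026). The depot difference was -1.66 within lane 1 (adjusted p = 0.018) and -2.09 within lane 2 (adjusted p = 0.050, just above the threshold).

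Cd22 and Cd79b, the B cell markers reported here that could be tested between the white depots, were not called in the direction of Ms4a1. Cd22, an inhibitory lectin of B cells, had 2.40 to 4.17 RPKM in eWAT, 0.725 to 1.25 in iWAT and 0.0576 to 0.170 in BAT (log2 eWAT over iWAT 1.73 ± 0.14). Cd79b, the beta chain of the B cell receptor complex, did not pass between the white depots (log2 0.46 ± 0.28). The markers with too few reads for the test had the order of Ms4a1 in their means, with Cd79a, the alpha chain of that complex, at 0.283 RPKM in iWAT against 0.0954 in eWAT, Pax5, the B cell identity factor, at 0.0599 against 0.0073, and Blk, a B cell kinase, at 0.0922 against 0.0159. Pax5 and Blk had at most 2 reads in any eWAT library and up to 10 and 19 in iWAT. Of the 5 B cell markers, 2 were tested in eWAT over iWAT with Cd22 called higher in eWAT, 3 in iWAT over BAT with Cd22 called higher in iWAT, and 2 in eWAT over BAT, where Cd22 and Cd79b were called higher in eWAT. In the list of the B cell receptor, 2 of 4 genes were tested in eWAT over iWAT, and Cd81, a tetraspanin that many cell types express, was called higher in iWAT (log2 -0.98 ± 0.14). Cr2, the complement receptor of B cells, was at a mean of 0.0447 RPKM in iWAT and 0.0063 in eWAT.

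The T cell and mast cell members were at the edge of detection. Ms4a4b had 5 to 16 reads in iWAT, 2 to 8 in eWAT and 4 to 13 in BAT, equal to 0.0207 to 0.0666, 0.00743 to 0.0300 and 0.0191 to 0.0461 RPKM, and the 3 tissues overlapped. It did not reach the mean of 10 reads in any comparison, and with genes of few reads kept its log2 fold changes were -0.73 ± 0.36 in eWAT over iWAT and -0.83 ± 0.37 in eWAT over BAT (edgeR adjusted p = 0.13 and 0.063). Cd3d, Cd3e and Cd3g, the CD3 chains of the T cell receptor complex, had at most 13 reads in a library. Of the 7 T cell markers, 3 were tested in eWAT over iWAT, and 2 in each comparison with BAT. In eWAT over iWAT, Cd247 was called higher in eWAT. Lck, a T cell kinase, was called higher in iWAT, with 5 to 28 reads there and 1 to 12 in eWAT. Cd2 was called higher in both white depots than in BAT. It had 1 to 7 reads in BAT and thus passed the filter through the white depots, where it was higher. Cd247 was called higher in BAT than in iWAT under TMM scaling (log2 iWAT over BAT -0.22 ± 0.087). In RPKM, which has no such scaling, Cd247 ran the other way, with 0.997 to 1.39 in iWAT and 0.769 to 0.963 in BAT. Ms4a2 had 0 reads in all 6 BAT libraries, 0 to 2 in iWAT and 0 to 4 in eWAT. The 3 reads that a count of 0 allows stand for at most 0.0475 RPKM in a BAT library, for counting error only. A difference in Ms4a2 was thus not detectable at this depth. The other chains of the IgE receptor did not share a pattern. Fcer1a, the IgE-binding chain, had at most 3 reads in any library. Fcer1g, the signalling chain that macrophages also use, was at 157.9 to 228 RPKM in eWAT, 32.7 to 54.2 in iWAT and 2.61 to 3.59 in BAT. Cpa3, the mast cell carboxypeptidase, was detected in every library at 0.0444 to 0.624 RPKM in eWAT, 0.190 to 0.436 in iWAT and 0.143 to 0.444 in BAT. Of the 6 mast cell markers, 4 were tested in eWAT over iWAT, where Tpsb2 was called higher in eWAT (log2 1.70 ± 0.59). Tpsb2 had 2 to 47 reads in eWAT and 4 to 17 in iWAT. In iWAT over BAT 3 were tested, with Cpa3 and Tpsb2 called higher in BAT under TMM scaling (log2 -0.81 ± 0.28 and -1.51 ± 0.54). In RPKM iWAT and BAT overlapped in both, with means of 0.303 and 0.342 for Cpa3 and 0.194 and 0.353 for Tpsb2. In eWAT over BAT 4 were tested, with log2 fold changes of -0.58 to 0.28 and edgeR adjusted p of 0.26 to 0.91.

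To set the macrophage members against the lymphocyte and mast cell members within each library, the log2 ratio of Ms4a7 to each of them was taken as log2((RPKM + 0.1)/(RPKM + 0.1)). Over Ms4a1 it was 6.96 ± 0.21 in eWAT (SD, n = 6), 3.60 ± 0.51 in iWAT and 1.18 ± 0.35 in BAT. Over Ms4a4b it was 7.11 ± 0.19 in eWAT, 4.25 ± 0.31 in iWAT and 1.61 ± 0.13 in BAT. Over Ms4a2 it was 7.29 ± 0.085, 4.62 ± 0.28 and 2.00 ± 0.18 in the same order. All 9 differences between tissues, 2.42 to 5.78 on the log2 scale, gave p = 0.0022 in an exact two-sided permutation test, also after adjustment over the 9 tests. This is the smallest p that 6 against 6 libraries allow. The size depended on the pseudocount, and the 9 differences were 1.39 to 3.85 with 1 and 2.56 to 6.48 with 0.02 in place of 0.1. Within lane 1 eWAT exceeded iWAT by 3.26 for Ms4a1, 2.75 for Ms4a4b and 2.52 for Ms4a2, and within lane 2 by 3.49, 2.91 and 2.77. Since 0.1 is above the level of Ms4a4b and Ms4a2 in every library, those ratios move almost only with Ms4a7. Ms4a1 ran from 0.0253 to 0.214 RPKM over all libraries. With 0.1 added, this log2 range was narrower than either gap between tissues in Ms4a7 (0.361 to 1.68 and 3.67 to 14.9 RPKM). The p of all 9 tests was thus fixed by the lack of overlap in Ms4a7 given above. These p-values are no separate support for a difference relative to Ms4a1, Ms4a4b or Ms4a2.

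As a share of the summed RPKM of the 9 members, the macrophage members made up 93.0% ± 0.62 in eWAT (SD, n = 6), 84.1% ± 2.4 in iWAT and 52.1% ± 3.1 in BAT. The sum itself was 75.3 ± 14.1, 14.99 ± 3.2 and 2.93 ± 0.55 RPKM. In BAT the largest share fell to Ms4a4d, with 30.7% ± 4.4, against 1.70% ± 0.58 in eWAT. Ms4a1 held 2.82% ± 1.2 of the sum in BAT, 0.850% ± 0.41 in iWAT and 0.0518% ± 0.015 in eWAT. In eWAT the order was Ms4a6d, Ms4a7, Ms4a6c, Ms4a6b, Ms4a4d, Ms4a4c, Ms4a1, Ms4a4b and Ms4a2, where Ms4a7 and Ms4a6c overlapped and the last 3 overlapped each in turn. In iWAT, Ms4a6c came before Ms4a7 and Ms4a4d before Ms4a6b, with overlap in both pairs. Ms4a1 came before Ms4a4c in iWAT and in BAT, with overlap in each. In BAT, Ms4a4d, Ms4a6d, Ms4a6c, Ms4a6b and Ms4a7 followed each other with overlap at each step. RPKM divides by row length, and the rows of Ms4a1, Ms4a4b, Ms4a4c and Ms4a7 have 6347, 7952, 4220 and 4453 bases. They are much longer than the longest annotated transcripts of these genes (2524, 1244, 1723 and 1576 bases), so their levels relative to other members may be understated.

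**Figure D3:**
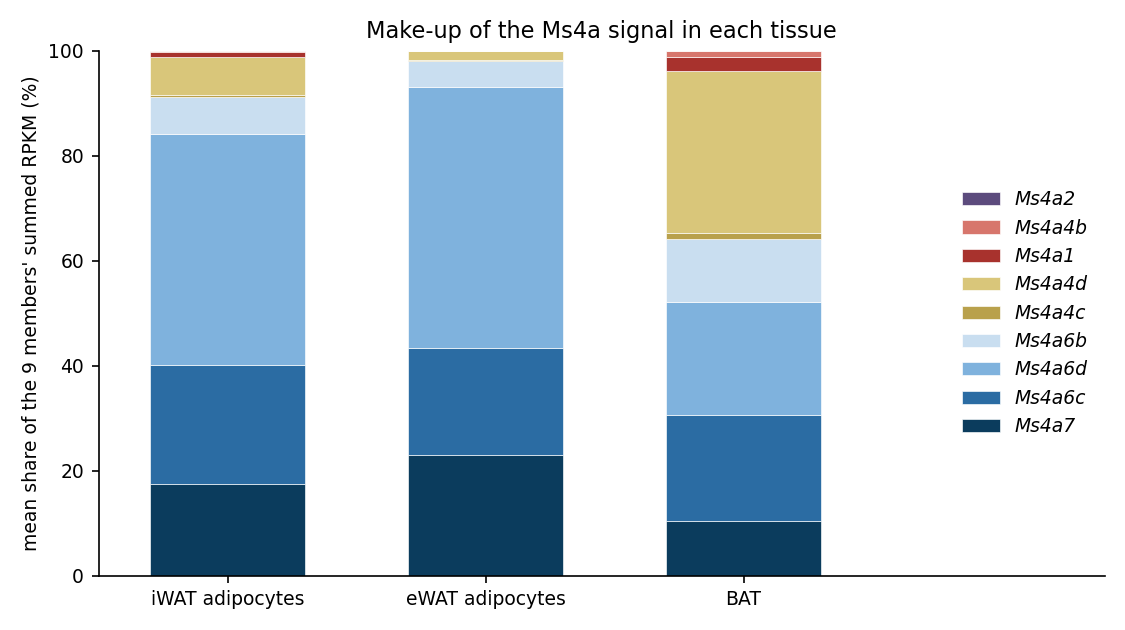
Mean share of each member in the summed RPKM of the 9 members, in percent, for 6 libraries a tissue. The macrophage members Ms4a7, Ms4a6c and Ms4a6d, at the bottom of each bar, take 84.1% in iWAT, 93.0% in eWAT and 52.1% in BAT, where Ms4a4d takes 30.7%.

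Within a tissue, each cell type member was compared over the 6 libraries with the mean log2(RPKM + 0.1) of the markers of its cell type. This gave 9 relations, since Ms4a2 had too few reads in all 3 tissues, and p-values are from exact permutations and adjusted over the 9. In eWAT, Ms4a7 rose with the macrophage list (r = 0.98, permutation p = 0.0042, adjusted 0.037; rho = 0.94, permutation p = 0.017, adjusted 0.050), and r stayed at 0.93 without the 2 libraries farthest from the median. In iWAT r was 0.87 (permutation p = 0.031, adjusted 0.092; rho = 0.83, permutation p = 0.058, adjusted 0.105) and fell to 0.24 without 2 libraries, so it rested on them. In BAT r was 0.56 (permutation p = 0.26, adjusted 0.33; rho = 0.94, permutation p = 0.017, adjusted 0.050), and 0.83 without 2 libraries. Ms4a1 and the B cell list in iWAT had r = 0.89 (permutation p = 0.019, adjusted 0.087; 0.78 without 2 libraries) and rho = 0.94 (permutation p = 0.017, adjusted 0.050). In eWAT, where the B cell list is led by Cd22, r was -0.11 (rho = -0.14) and in BAT 0.27 (rho = 0.14), with permutation p of 0.81 and 0.61 for r (adjusted 0.81 and 0.69) and 0.80 in both for rho (adjusted 0.80). Without 2 libraries r was 0.80 in eWAT, where Ms4a1 had only 6 to 9 reads, and 0.29 in BAT. Ms4a4b and the T cell list gave r = 0.57, 0.67 and 0.72 in iWAT, eWAT and BAT (rho = 0.43, 0.89 and 0.60), none of which passed (permutation p = 0.24, 0.051 and 0.078 for r, adjusted 0.33, 0.12 and 0.14; permutation p = 0.42, 0.033 and 0.24 for rho, adjusted 0.54, 0.075 and 0.36). Without 2 libraries their r was -0.39, 0.67 and 0.93. iWAT replicates 5 and 1, the highest in Ms4a1, were also the highest in the T cell member Ms4a4b. In the summed T cell markers of iWAT, replicate 5 was the highest at 2.43 RPKM. Replicate 1, at 1.73 RPKM, was below replicates 3 and 4 at 2.18 and 2.16.

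**Figure D4:**
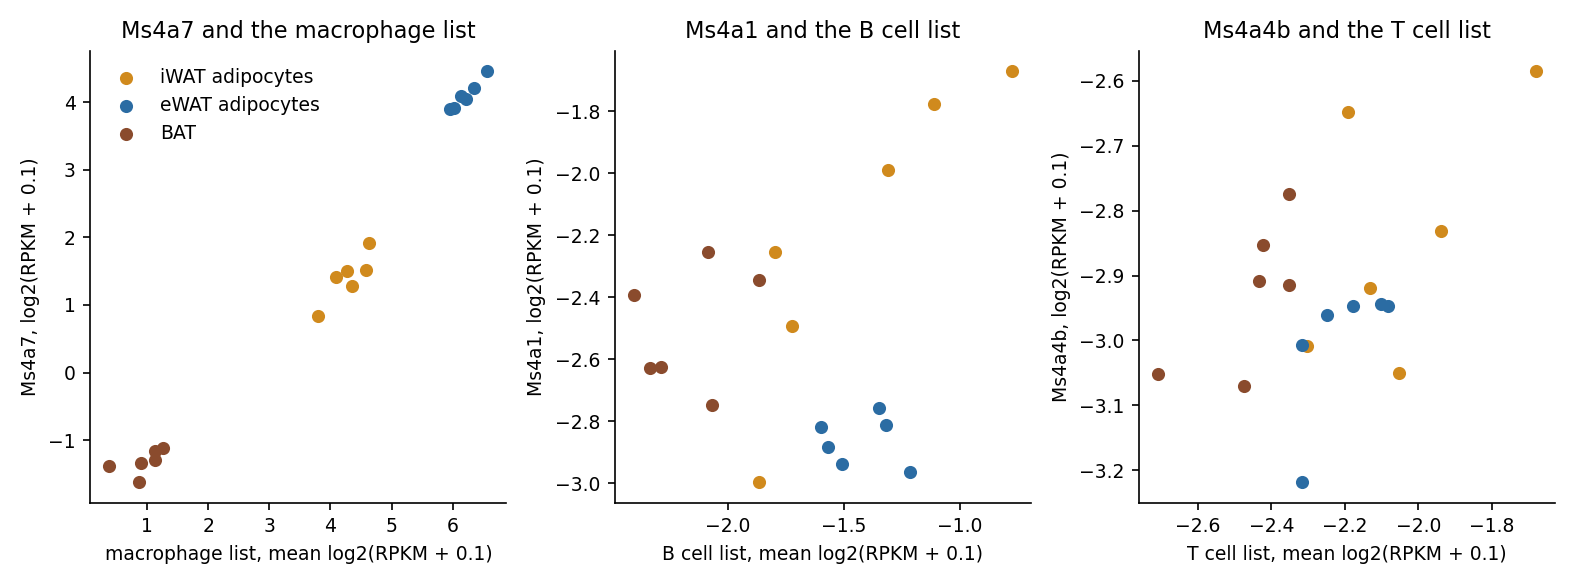
Log2(RPKM + 0.1) of Ms4a7, Ms4a1 and Ms4a4b against the mean log2(RPKM + 0.1) of the macrophage, B cell and T cell lists, 1 point a library, coloured by tissue. Ms4a7 forms 3 clusters by tissue along the macrophage list (r = 0.98 within eWAT), Ms4a1 rises along the B cell list within iWAT (rho = 0.94), and Ms4a4b spreads with no clear separation of tissues.

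Of the other 9 Ms4a symbols, 3 had more than 3 reads in some library. Ms4a4a, a macrophage gene next to Ms4a4c, was at 5.86 to 8.92 RPKM in eWAT, 1.31 to 3.11 in iWAT and 0.0490 to 0.837 in BAT, and was higher in eWAT than iWAT (log2 1.73 ± 0.19) and in iWAT than BAT (log2 1.48 ± 0.34; edgeR adjusted p = 0.00095). Ms4a14, next to Ms4a7, was at 3.63 to 7.43, 0.525 to 1.25 and 0.226 to 0.372 RPKM in the same order (log2 eWAT over iWAT 2.78 ± 0.20). In the white depots both were above Ms4a1, Ms4a4b and Ms4a2 in every library. Ms4a8a had 10 to 34 reads in either white depot and 1 to 4 in BAT, and did not pass between the white depots (log2 0.14 ± 0.34; edgeR adjusted p = 0.73). Ms4a3, Ms4a5, Ms4a13 and Ms4a15 had no read in any library, and Ms4a10 and Ms4a18 had 1 read each in all. Tmem176a and Tmem176b, related membrane proteins outside the Ms4a locus that also mark myeloid cells, were higher in both white depots than in BAT (log2 2.38 and 2.19 in iWAT, 2.56 and 2.35 in eWAT). They did not pass between eWAT and iWAT (log2 0.16 ± 0.16 and 0.14 ± 0.12; edgeR adjusted p = 0.38 and 0.34).

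The genes most like each member were taken as those with the highest Pearson r over the 18 libraries after tissue means were taken off, among 19934 symbols with a mean of at least 10 reads. For Ms4a7 they were Arhgap19, 2700078E11Rik and Ifi204 (r = 0.91, 0.88 and 0.87), and for Ms4a6d 6330537M06Rik, Vwa5a and Lilrb4 (r = 0.91, 0.90 and 0.89). Ms4a6c was followed most closely by LOC100504727, the row that overlaps it (r = 0.95), then by Pum2 and Ssfa2 (r = 0.93 in each), and Ms4a6b also by LOC100504727 (r = 0.85). Ms4a4d went with Naalad2, Ccl11 and S1pr3 (r = 0.93, 0.92 and 0.91), Ms4a1 with Smoc2, Gm14005 and D130037M23Rik (r = 0.90, 0.89 and 0.88) and Ms4a4c with Atad5, Zfp292 and Trio (r = 0.89, 0.88 and 0.88). The highest of so many correlations over 18 libraries is large by selection, and these names are a description.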

How the data were processed

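RNA-seq was analysed from 18 libraries, 6 per tissue. Per the labels' processing notes, the authors used cutadapt 1.16, HISAT2 2.1.0 and mm9; the counter, annotation and treatment of multiply matching reads are not given in the sources used here. The authors deposited, per library and row, whole read counts and RPKM values. Rows of a symbol were reduced to that with the highest mean RPKM. Counts were tested with edgeR 4.0.16 (quasi-likelihood, TMM, mean of at least 10 reads over the compared libraries, Benjamini-Hochberg over all genes, 0.05) in R 4.3.3, using only the libraries compared; SE is the absolute log2 fold change over the square root of F. Levels, ratios and correlations used RPKM with a pseudocount of 0.1 and SciPy 1.17.1. On simulated counts for eWAT against iWAT (19484 genes), 94 tested genes carried a 2-fold and 101 a 4-fold change. Of these, 80.9% and 97.0% were recovered. Of the calls, 8.90% were false, above the threshold of 0.05 (3.21% and 3.33% in the simulations of iWAT and eWAT against BAT). In the data 68.6% to 82.5% of genes were called. With so few changed genes, these rates describe the simulation only. DESeq2 1.42.0, limma 3.58.1 on log2 RPKM and the other settings below served as alternatives. Reads on the rows numbered 24655056 to 42518483 per library. The read floors cover counting error only. The intervals of the log2 fold changes were built from the SE defined above, which includes the spread between libraries. Named were all Ms4a symbols, the marker lists and, for each member with a mean of 10 reads, the 3 most similar symbols. The members and lists were chosen with earlier results of these data known. One gene of the B cell lists is not reported here, and all values of those lists were computed without it. Promoters are from RefSeq (GRCm38.p6), coding sequences from GENCODE vM1 on mm9 (Biopython 1.88, global alignment). No protein sequences were used here.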

Additional observations from a re-analysis of the deposited data

Results flagged for a closer look

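Of 27 groups of 6 libraries (9 members in 3 tissues), 3 held a library set apart from the other 5 by more than Dixon's 95% critical value for 6 samples, where chance gives about 1 in 20 groups, or 1.35. Ms4a6b in iWAT replicate 2 was at 0.612 RPKM (75 reads) against 1.03 to 1.25 RPKM in the other 5 libraries, and that library was also the lowest of iWAT for Ms4a7, Ms4a6c and Ms4a6d. Ms4a2 in eWAT replicate 3 was at 0.0488 RPKM, which is 4 reads, against 0 to 0.0176 RPKM in the others. Ms4a4b in eWAT replicate 2 was at 0.00743 RPKM, which is 2 reads, against 0.0244 to 0.0300 RPKM. The last 2 values rest on a handful of reads.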

How the results depend on the processing

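The counts of members called ranged from 4 to 6 in eWAT against iWAT over 12 alternatives, from 4 to 5 in iWAT against BAT over 9 and from 5 to 7 in eWAT against BAT over 8, all within 1.5 times the reported counts. Ms4a7, Ms4a6c, Ms4a6d and Ms4a6b kept their direction and their call in every alternative. Of 188 alternative fold changes of single members, 172 kept direction and call, 7 lost the call, 2 gained it and 7 reversed. All reversals concerned differences from BAT that had not been called: Ms4a4d in iWAT over BAT became 0.50 without scaling beyond the total count, 0.20 with limma at a pseudocount of 0.1 and 0.12 at a pseudocount of 1; in eWAT over BAT it became 0.76, 0.42 and 0.24 in the same order, all 3 past the threshold; and Ms4a1 in iWAT over BAT became -0.092 without iWAT replicate 5. Limma, which worked on RPKM, gave a median log2 over all genes of 0.54 and 0.48 in these 2 comparisons at a pseudocount of 0.1, with calls split 12752 against 4402 and 11972 against 5740. The ratio differences kept their sign with the other pseudocounts, but their p was the smallest possible throughout, so their calls say nothing of stability. The correlations kept sign and call. The numbers in the sample titles are shared by 6 pairs of iWAT and eWAT libraries and 4 pairs with BAT, but nothing says that they name a mouse, and deviations of same-numbered libraries correlated at -0.24 to 0.42, -0.14 to 0.098 and -0.038 to 0.067, so they were not taken as pairs. With the replicate block, 6, 4 and 5 members were called, Ms4a4c in eWAT over BAT being lost (log2 1.05, adjusted p = 0.070), and 12836, 12555 and 15149 genes. Lane 1 alone, chosen after seeing the data like lane 2 alone, called 7300 genes against 13454, with fewer libraries. Depth limits Ms4a1, Ms4a4b, Ms4a4c and Ms4a2, which had at most 41 reads in a library.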
